A study of Homo sapiens with 6 samples.

Results

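H3K27ac in CCRF-CEM cells with a knockout of SLFN11 was compared between 2 h of 100 nM camptothecin and the vehicle DMSO. CCRF-CEM is an established human T lymphoblast leukemia line, and the mark was profiled by chromatin immunoprecipitation and sequencing (ChIP-seq). The comparison uses 2 of the 6 libraries of the study. The others are the same knockout after 4 h of camptothecin and wild-type parental cells after 2 h, after 4 h and with DMSO, and they stand beside the results where they help to read them. With 1 library for each group, differences have no replicates behind them, and no standard error or p-value between groups is given. Whether the knockout line was 1 clone is not given in the sources used here.

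Acetylation of histone H3 at lysine 27 is placed mainly by the acetyltransferases CBP and EP300 and removed by histone deacetylases. It marks promoters and enhancers in use, and in leukemia cells its densest stretches often lie at genes that hold the cell's identity. Camptothecin traps topoisomerase I on DNA, and replication forks and transcribing polymerases then meet the trapped enzyme. SLFN11, a Schlafen family protein, is known to be recruited to stressed replication forks and to block their progress. The pair of knockout libraries gives the mark after the drug in cells labelled as lacking it. The deposited files give peak positions on the genome build hg19 without gene names. No annotation of that build was used here, so genes, the SLFN11 locus and T cell marker genes were not looked up and the knockout label was not checked, and sites are named by position. No list of artifact-prone sites was used here either.

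The camptothecin list held 221753 broad peaks and the DMSO list 271785, of which 218105 and 267480 were on chromosomes 1 to 22 and X. These peaks covered 159 Mb after camptothecin and 193 Mb with DMSO. The background pileup, the number of fragments per base that the peak caller expected without enrichment, was 0.715 after camptothecin and 0.699 with DMSO, a ratio of 1.02. It is the nearest measure of depth that the lists hold. To compare like with like, the 30000 peaks of smallest p were taken from each list. The fold of a peak compares its pileup with the local background of its own library, each with 1 added, and both fold and p are the authors' values.

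Strong H3K27ac sites were found in both libraries. All 5000 of the strongest camptothecin peaks, and all 5000 of the strongest DMSO peaks, overlapped one of the 30000 strongest peaks of the other library. For ranks over 5000 up to 10000 the share was 99.98% in both directions, and for ranks over 10000 up to 15000 it was 99.1% of the camptothecin peaks and 98.0% of the DMSO peaks. Below that the lists parted. For ranks over 15000 up to 20000 the shares were 82.7% of the camptothecin peaks (Wilson 95% interval 81.6 to 83.7) and 80.9% of the DMSO peaks (79.8 to 82.0). For ranks over 20000 up to 30000 they were 43.0% (42.1 to 44.0) and 44.0% (43.0 to 45.0). The intervals cover counting over peaks only.

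Most of the peaks that went unmatched were still present in the other library as weaker peaks. Set against all deposited peaks, 93.5% of the camptothecin peaks ranked over 20000 up to 30000 and 91.0% of the DMSO peaks of these ranks were found. The DMSO list was the longer one, which makes a match in it likelier. Among the 15000 strongest camptothecin peaks, 0 lacked a deposited DMSO peak, and of the DMSO peaks 1 at ranks over 5000 up to 10000 and 6 at ranks over 10000 up to 15000 lacked a camptothecin peak. Over all 30000 peaks, 78.0% of the camptothecin peaks (77.5 to 78.4) and 77.8% of the DMSO peaks were shared. In the other 9 pairs among the libraries outside knockout 4 h, the share of the first library's peaks was between 71.4% and 75.6%. By this share the treated and untreated knockout libraries had the greatest overlap of these 10 pairs. They also had the highest background pileups of these libraries, 0.715 and 0.699, against 0.506 to 0.603 in the parental ones. The part of the background in this overlap was not tested.

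**Figure D1:**
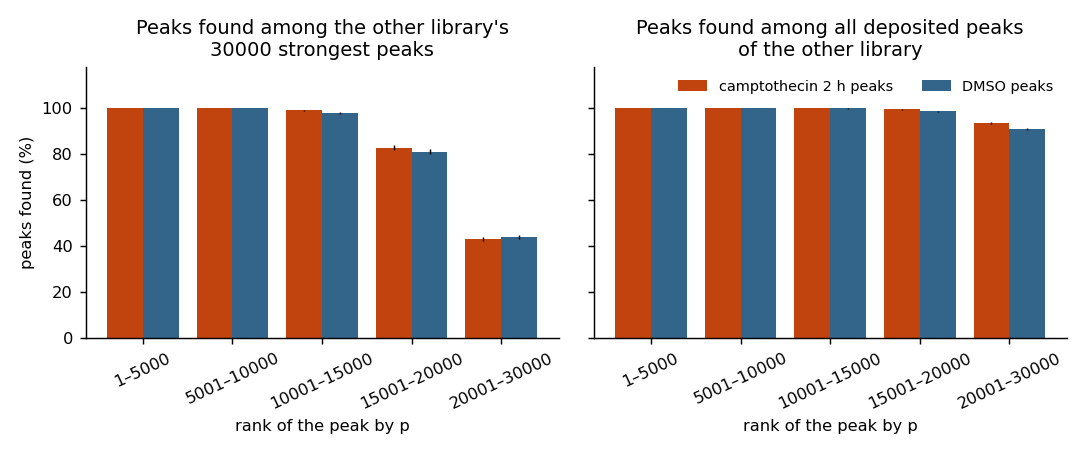
Percentage of peaks (vertical axis) of each strength class (horizontal axis, rank by p) found in the other knockout library, for camptothecin 2 h peaks and DMSO peaks, with Wilson 95% intervals over peaks as bars. The share of matched peaks falls to 43.0% of the camptothecin peaks and 44.0% of the DMSO peaks at ranks over 20000 up to 30000, where 93.5% and 91.0% are found among all deposited peaks.

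The strongest single sites were much the same in both libraries. The peak on chromosome 2 from 33141145 to 33141827 ranked 1 after camptothecin and 1 with DMSO, where fold was 13.1 and 12.8, and the peak on chromosome X from 123480171 to 123481144 ranked 2 in both. The third peak after camptothecin, at fold 10.8 on chromosome 6 from 135667165 to 135667831, ranked 18 with DMSO. Of the other libraries, parental DMSO ranked it 11, parental 2 h 89, parental 4 h 108 and knockout 4 h 183. At fold 14.9, the peak on chromosome 3 from 73159764 to 73160281 ranked 7 after camptothecin and 8 with DMSO. Whether any of these sites lies in a repeat was not tested.

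At equal rank, strong peaks had smaller p-values after camptothecin and weak peaks larger ones. At rank 1000 the −log10 p was 40.1 after camptothecin and 36.5 with DMSO, and at rank 5000 it was 22.6 and 20.6, a ratio of 1.10 at both ranks. At rank 20000 it was 4.93 and 4.76. Rank 25619 was the last with the larger value after camptothecin, with 3.35 after camptothecin and 3.39 with DMSO at rank 30000 and 1.90 and 2.00 at rank 100000. Accordingly, 5016 camptothecin peaks and 4225 DMSO peaks reached 20 on the −log10 q scale, and 183 and 102 reached 50. Counting those that reached 1, the order was the other way, with 37226 camptothecin peaks and 38578 DMSO peaks.

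**Figure D2:**
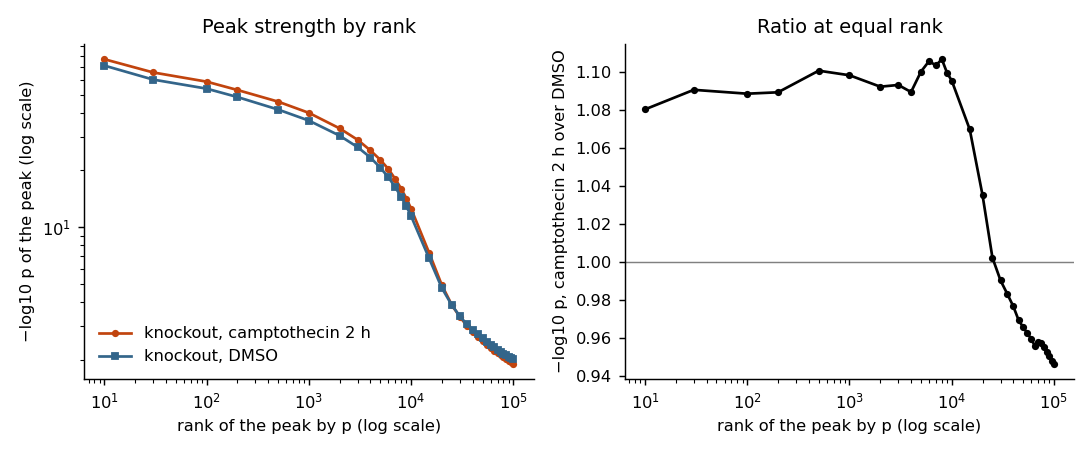
Left, −log10 p of the peak at each rank (both axes logarithmic) in knockout cells after camptothecin for 2 h and with DMSO. Right, the ratio of these values at equal rank, which is 1.10 at rank 5000 and 0.947 at rank 100000, with the horizontal line at 1.

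The same was seen at sites chosen without either knockout library. Regions were built from the matched peaks of the 3 parental libraries, 43943 in all, and sorted by their mean rank there. Among the 2500 strongest, 81.6% had a larger −log10 p after camptothecin than with DMSO in the knockout, with medians of 37.6 and 34.3. The share was 72.3% for parental ranks over 5000 up to 10000, and 55.3% for ranks over 15000 up to 20000. Beyond rank 30000 it was 41.5%, with 48.4% smaller after camptothecin and 1406 of 13943 regions without a peak in either library. The fold did not follow at strong sites. Its median was 6.13 after camptothecin and 6.15 with DMSO among the 2500 strongest regions, where 50.7% had a larger fold after camptothecin. At parental ranks over 10000 up to 15000 the median fold was 4.28 and 4.19. A p-value of MACS2 depends on depth as well as on enrichment, and the part of the slightly higher background pileup after camptothecin in this shift was not tested.

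Among the matched peaks, median widths were also a little larger after camptothecin, but hardly over all deposited peaks. The median width of the matched peaks was 1143 bp after camptothecin and 1103 bp with DMSO, and 4715 and 4379 of them reached 2000 bp. Over all deposited peaks the median width was 448 bp after camptothecin and 447 bp with DMSO. The 30000 peaks of each library covered 37.7 Mb after camptothecin and 36.8 Mb with DMSO, a ratio of 1.03. Among the 5000 strongest camptothecin peaks, 56.0% were wider than the DMSO peak they overlapped, and among the 5000 strongest DMSO peaks 38.5% were wider than their camptothecin partner. The widest camptothecin peak, on chromosome 17 from 78738892 to 78749003, spanned 10112 bp, where the widest overlapping DMSO peak had 3156 bp. In the other libraries the widest peak there had 2809 bp in knockout 4 h, 2804 bp in parental 2 h, 3165 bp in parental 4 h and 6832 bp in parental DMSO. The widest DMSO peak, on chromosome 1 from 228772983 to 228783200, spanned 10218 bp, and the widest camptothecin peak over it had 7663 bp. On chromosome 17 from 56408278 to 56417003 the camptothecin library had a widest peak of 4706 bp, against 8726 bp with DMSO. There the 4 other libraries had between 4516 and 4695 bp, so that the DMSO library stood apart and not the treated one.

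Changes were then located in 10 kb windows, counted as marked when a matched peak touched them. Of 36175 windows marked in either library, 23958 were marked in both, 5965 only after camptothecin (gained) and 6252 only with DMSO (lost). These are 16.5% and 17.3% of the marked windows. The windows that changed held weak peaks: the strongest peak in them ranked beyond 20000 in 5002 of the gained and 5174 of the lost windows. Of the gained windows, 96.4% contained a weaker DMSO peak, and of the lost windows 91.7% contained a weaker camptothecin peak. This left 212 gained windows with no deposited DMSO peak and 519 lost windows with no deposited camptothecin peak. Over all 303554 windows, 119458 held deposited peaks of both libraries, 43533 of DMSO only and 18626 of camptothecin only. Absence from the shorter camptothecin list was thus commoner over all windows too. Changes of at least 1000 bp of covered length were more often upward, with 1959 windows up and 1478 down after camptothecin.

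The 10 windows with the largest gain of covered length gained between 3726 and 5225 bp. The first was on chromosome 12 from 113520001 to 113530000, with 5225 bp after camptothecin and 0 with DMSO. The strongest peak there had a −log10 p of 3.40 after camptothecin and 2.92 with DMSO, on either side of the value at rank 30000, and all deposited peaks covered 5225 bp after camptothecin and 5621 bp with DMSO. This was a small difference in p at a wide, low peak, with a fold of 2.43 after camptothecin and 2.18 with DMSO. In 7 of the 10 windows the matched DMSO cover was 0. In these 7 the largest −log10 p lay between 3.36 and 5.40 after camptothecin and between 2.74 and 3.34 with DMSO. All 10 windows held deposited DMSO peaks, 2329 to 6063 bp long in sum. On chromosome 1 from 156030001 to 156040000 all deposited peaks covered 4464 bp after camptothecin and 2329 bp with DMSO. On chromosome 16 from 29500001 to 29510000 they covered 4600 and 2679 bp, although −log10 p was 5.62 after camptothecin and 6.78 with DMSO. On chromosome 1 from 32420001 to 32430000, the matched cover was 4762 bp after camptothecin and 677 bp with DMSO, and −log10 p was 8.98 and 6.54. This window had the largest −log10 p of the 10. Of these 10 windows, 4 were on chromosome 16.

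The 10 windows with the largest loss lost between 3258 and 4900 bp. On chromosome 4 from 49300001 to 49310000 the matched cover was 0 after camptothecin and 4900 bp with DMSO, and the cover by all deposited peaks was 4110 and 4900 bp. Chromosome 1 from 228750001 to 228760000 had a matched cover of 0 after camptothecin and 4312 bp with DMSO, at a low fold of 1.37 and 1.58, and all deposited peaks covered 7127 and 7342 bp. The largest difference in −log10 p among the 10 was on chromosome 19 from 27730001 to 27740000, where −log10 p was 3.33 after camptothecin and 9.44 with DMSO and the fold 3.02 and 4.30. Parental cells had a −log10 p of 5.57 at 2 h, 3.92 at 4 h and 7.84 with DMSO in that window, so it was lower at both times than with DMSO there too. On chromosome 11 from 56360001 to 56370000 the loss was largest with all deposited peaks, at 1299 bp after camptothecin and 3677 bp with DMSO. In that window −log10 p ran the other way, at 5.01 after camptothecin and 3.48 with DMSO.

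Most changed windows stood alone. Whether neighbours changed together more often than the share of changed windows in the genome would give was not tested. Of 5471 runs of gained windows, 5017 were single windows and 37 held 3 or more, and of 5786 runs of lost windows 5349 and 28 did. The longest gained run with the most cover lay on chromosome 21 from 47230001 to 47270000, where 4 windows in a row were covered by 8172 bp after camptothecin and 0 with DMSO. Parental 4 h had 1218 bp there and the 3 remaining libraries 0. All deposited peaks covered 11797 bp after camptothecin and 10112 bp with DMSO. On chromosome 14 from 105640001 to 105670000 the cover was 5804 bp after camptothecin and 0 with DMSO, with 1811 bp in parental 4 h and 0 elsewhere, while all deposited peaks covered 9914 and 10862 bp. The longest lost run, on chromosome 1 from 145340001 to 145380000, had 0 after camptothecin and 1817 bp with DMSO. A lost run on chromosome X from 19870001 to 19900000 had 0 after camptothecin and 4636 bp with DMSO. In parental cells it had 2352 bp at 2 h, 2568 bp at 4 h and 5975 bp with DMSO, lower at both times than with DMSO. All deposited peaks gave the opposite order in the knockout, 12646 bp after camptothecin and 8891 bp with DMSO. Knockout 4 h, whose background pileup was only 0.168, also had a matched cover of 0.

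The 30000 peaks of each library were then merged into 36497 regions, and each was ranked in both libraries by its smallest p, over all deposited peaks. Between the libraries, 8339 regions (22.8%) ranked higher after camptothecin by more than 10% of the number of regions, and 8146 (22.3%) ranked lower. A weak region enters the set through either list, which by itself pushes its ranks apart, so these shares are read only beside other pairs. The share moved in either direction was 45.2%, against 50.2% to 55.3% in the other 9 pairs among the libraries outside knockout 4 h, each over its own merged regions. The part of the background pileups in this difference was not tested. Counted the same way, 2335 regions stood above knockout DMSO and all 3 parental libraries after camptothecin, and 2089 stood below. For the DMSO library itself these counts were 2159 above and 2206 below knockout 2 h and the parental libraries. All these counts are out of the same 36497 regions. The regions were built from equal numbers of peaks of knockout 2 h and knockout DMSO alone. That by itself can bring the counts near each other, so no conclusion is drawn from their likeness.

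**Figure D3:**
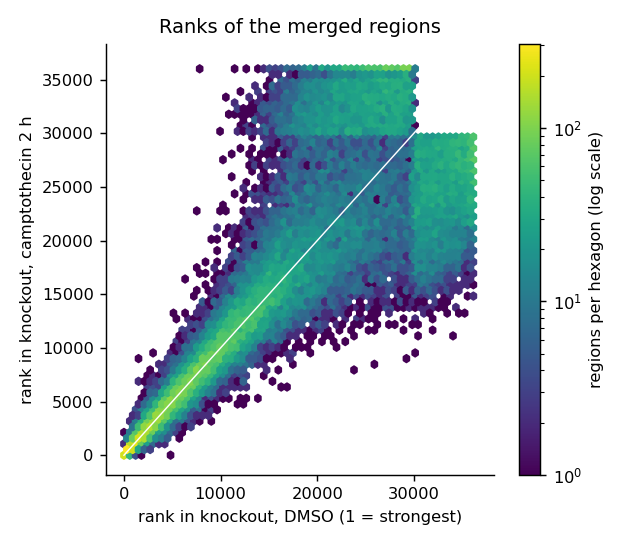
Rank of each of 36497 merged regions in knockout cells after camptothecin (vertical) and with DMSO (horizontal), 1 being the strongest; colour gives regions per hexagon on a log scale and the line marks equal rank. Strong regions lie along the line and the spread opens beyond about rank 15000; the gap near rank 30000 comes from the choice of the 30000 strongest peaks.

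Among strong regions few moved. Of 5482 regions ranked within the first 5000 in either library, 4518 were within it in both, 27 (0.493%) ranked higher after camptothecin by more than that gap and 29 (0.529%) lower. The median size of a rank change among them was 485 places. The following are the largest of them, a choice made after seeing the values. The largest rise was on chromosome 3 from 46590304 to 46592686, ranked 4603 after camptothecin and 12156 with DMSO, and its fold was 4.58 and 2.94. Ranked by fold, its rise was 17102 places instead of 7553. It ranked 13712 in knockout 4 h, and 8196, 6039 and 8609 in parental 2 h, 4 h and DMSO, so that the untreated knockout ranked it below every library but knockout 4 h. On chromosome 4 from 109353615 to 109354115 the fold was 11.6 after camptothecin and 7.02 with DMSO, at ranks 4078 and 9047. Ranked by fold, that rise was 1772 places instead of 4969. The region on chromosome 11 from 3805952 to 3806980 ranked 3768 after camptothecin and 8609 with DMSO, and it ranked 1897 in knockout 4 h. Its ranks in parental cells were 9878 at 2 h, 8404 at 4 h and 8869 with DMSO. Both treated knockout libraries therefore ranked it above all 4 others. Another such region was on chromosome 1 from 53512499 to 53515032, ranked 2371 after camptothecin and 7019 with DMSO, with 5849 in knockout 4 h and 7906 to 11522 in parental cells.

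The largest fall among strong regions was on chromosome 2 from 38851562 to 38854416. It ranked 8722 after camptothecin and 1391 with DMSO, with a fold of 4.07 and 6.86. Ranked by fold, the change was −11505 places instead of −7331. Parental 2 h and 4 h ranked it 2468 and 3463 and parental DMSO 380, so that in both genotypes the treated libraries ranked it lower than the untreated one, and knockout 4 h ranked it 3284. The next, on chromosome 15 from 58764053 to 58767865, ranked 9405 after camptothecin and 3169 with DMSO, and between 397 and 3975 in the other 4 libraries. The treated knockout library ranked it lowest of the 6, and by fold the change was −12577 places instead of −6236. On chromosome 2 from 27008270 to 27010187 the rank was 7062 after camptothecin and 1665 with DMSO. Parental cells ranked it 6653 at 2 h, 5255 at 4 h and 1093 with DMSO and knockout 4 h ranked it 5351, so every treated library ranked it lower than both untreated ones. On chromosome 13 from 42645710 to 42646413 the fold was 9.62 after camptothecin and 13.3 with DMSO, at ranks 6644 and 2140, but ranked by fold the change was −175 places instead of −4504. Parental DMSO ranked it 8215, below both parental treated libraries.

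Over all regions the 10 largest rises were at regions of 210 to 1185 bp and the 10 largest falls at 234 to 655 bp. The largest rise was on chromosome 2 from 182295447 to 182295867, ranked 11079 after camptothecin with a fold of 6.41, and 34333 with DMSO with a fold of 2.26. No parental library had a peak in it. On chromosome 12 from 26170368 to 26170797 the fold was 7.35 after camptothecin and 3.04 with DMSO. On chromosome X from 42932010 to 42932219 the camptothecin peak had a fold of 5.25 and DMSO had no peak, yet all 3 parental libraries had one of 207 to 209 bp. The 5 strongest camptothecin peaks with no deposited DMSO peak ranked between 15163 and 16438, and all 3 parental libraries had a peak at each of the 5. Knockout 4 h had one at 4 of the 5.

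The largest fall over all regions was on chromosome 22 from 47005007 to 47005661, with a DMSO peak at rank 8066 and no peak in any of the 5 other libraries. Its fold was only 1.07 at a −log10 p of 14.3, and ranked by fold the change was −185 places instead of −27944. The DMSO peak on chromosome X from 6657413 to 6657764 ranked 11399 at fold 4.49, and the camptothecin library had none. Parental 2 h had none either, and knockout 4 h, parental 4 h and parental DMSO each had a peak of 352 bp. On chromosome 1 from 10804364 to 10804763 the DMSO peak had a fold of 5.50, the camptothecin library had no peak and the 3 parental libraries had 301 to 400 bp. Of all 36497 regions, 103 held a peak in the camptothecin library and in no other, and 114 in the DMSO library and in no other. Conversely, 181 lacked a peak in the camptothecin library, the shorter of these lists, and 113 in the DMSO library while the 5 others had one. In 29988 regions (82.2%) all 6 libraries had a peak.

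The regions that moved in the knockout were looked up in the parental cells, whose libraries had no part in choosing them. Regions with no peak in either parental 2 h or parental DMSO were left out, 570 of those ranked higher and 661 of those ranked lower after camptothecin in the knockout. Of the remaining 7769 regions ranked higher in the knockout, 49.5% ranked higher in parental 2 h than in parental DMSO. Of the remaining 7485 ranked lower in the knockout, 51.6% did. Over all 36497 regions less 1296 without a peak the share was 48.9%. In the smaller sets of strong regions the shares were 55.6% of the 27 that ranked higher in the knockout and 41.4% of the 29 that ranked lower, with median changes of 327 and −403 places. In parental 4 h against parental DMSO they were 55.6% and 37.9%, with medians of 465 and −384 places, and in the full sets 51.4% and 50.9%. Both parental comparisons use the same parental DMSO library, so they are not independent. That library ranked the 27 at a median of 7906 and the 29 at 5404. Knockout 4 h ranked those 27 at a median of 7584 and those 29 at 7349. In knockout 2 h the medians were 3768 and 7844, and in knockout DMSO 8089 and 3169.

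Where the mark was dense, matched cover was larger after camptothecin than with DMSO, and where it was sparse, it was smaller. The genome was divided into 1 Mb bins, sorted into 5 classes of equal number by their cover in parental 4 h, a library outside the comparison. In the densest class, with a median of 30.8 kb covered per bin, the matched peaks covered 22201 kb after camptothecin and 21061 kb with DMSO, a ratio of 1.05, and 402 of 576 bins were higher after camptothecin. In the sparsest class the peaks covered 581 kb after camptothecin and 685 kb with DMSO, a ratio of 0.848, and 217 of 577 bins were higher. The classes between had ratios of 0.891, 0.993 and 1.02. With all deposited peaks the ratio ran between 0.595 in the sparsest and 0.891 in the densest class, so the order of classes was kept while every class was below 1. Within 100 kb of one of the 5000 strongest peaks of parental 4 h lay 39.9% of the gained windows, 32.7% of the lost windows and 58.4% of those marked in both. In the parental pair at 2 h these shares were 32.3%, 40.2% and 58.5%. Measured to the 5000 strongest peaks of either knockout library, the share was 43.2% of the gained windows, 34.9% of the lost windows and 43.9% of 6930 windows marked in both by peaks ranked over 15000.

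Parental cells showed the opposite order at 2 h against DMSO, with a ratio of 1.31 in the sparsest and 0.853 in the densest class. Knockout 4 h against knockout DMSO also had this opposite order, with 1.87 in the sparsest and 0.630 in the densest class. The background pileup moved with these orders. It was 1.02 times that of DMSO in knockout 2 h, 0.839 times in parental 2 h and, in fragments per base, 0.168 in knockout 4 h against 0.699 in knockout DMSO. Across the 10 pairs of the 5 libraries other than parental 4 h, which share libraries, the pair member with the higher background had relatively more cover in the densest class in 9. The exception was knockout DMSO over parental DMSO, where the background ratio was 1.16 and the cover ratio 1.17 in the sparsest and 0.990 in the densest class. The part of the background in the change by density was not tested, and with 1 library a group the effects of treatment and of library cannot be told apart.

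**Figure D4:**
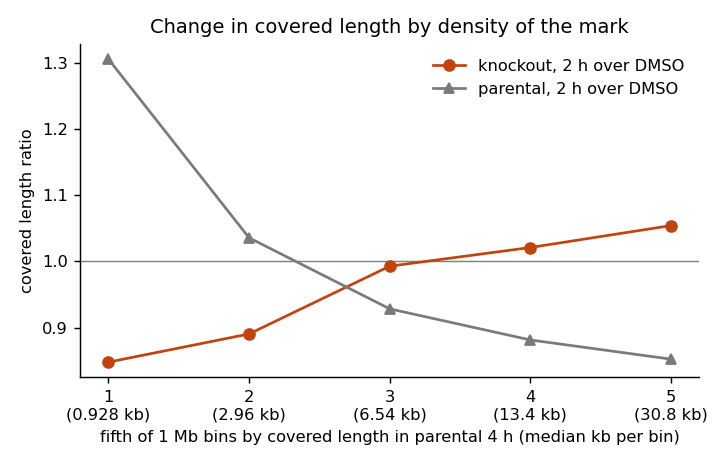
Ratio of length covered by matched peaks, 2 h camptothecin over DMSO (vertical), in 5 classes of 1 Mb bins sorted by cover in parental 4 h (horizontal), for knockout and parental cells; the line marks 1. The knockout ratio is 0.848 in class 1 and 1.05 in class 5, and the parental ratio 1.31 and 0.853.

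By chromosome, the net of gained minus lost windows was most extreme on chromosomes 13, 17, 4, 22 and 16. On chromosome 17, 268 windows were gained and 192 lost, a net of 4.30 per 100 marked, and 1551 camptothecin peaks and 1472 DMSO peaks lay there. Chromosome 22 had a net of 3.39 and chromosome 16 one of 3.37. On chromosome 13, 139 windows were gained and 196 lost, a net of −6.54 per 100 marked, with 671 camptothecin peaks and 726 DMSO peaks. Chromosome 4 had a net of −4.12. Over the 23 chromosomes the net followed the density of strong parental 4 h peaks (Spearman rho 0.62, Pearson r 0.47, given as a description). In the parental pair at 2 h the relation was inverse (rho −0.58, r −0.50). Chromosome 19, the densest, went against the trend in the knockout with a net of −1.15. Among the 15000 strongest peaks, 869 camptothecin and 865 DMSO peaks lay on chromosome 17 and 286 and 289 on chromosome 13. On chromosome 4 these numbers were 528 and 551, and on chromosome 8, which had the lowest ratio, 523 and 552. With 15000 peaks a library the net was 3.31 on chromosome 22, 1.68 on chromosomes 17 and 16, −4.31 on chromosome 4 and 1.16 on chromosome 13, the last a change of direction. With all deposited peaks the direction turned on chromosomes 17, 22 and 16, to −8.53, −8.25 and −12.1, and it was −17.5 on chromosome 13 and −16.1 on chromosome 4.

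**Figure D5:**
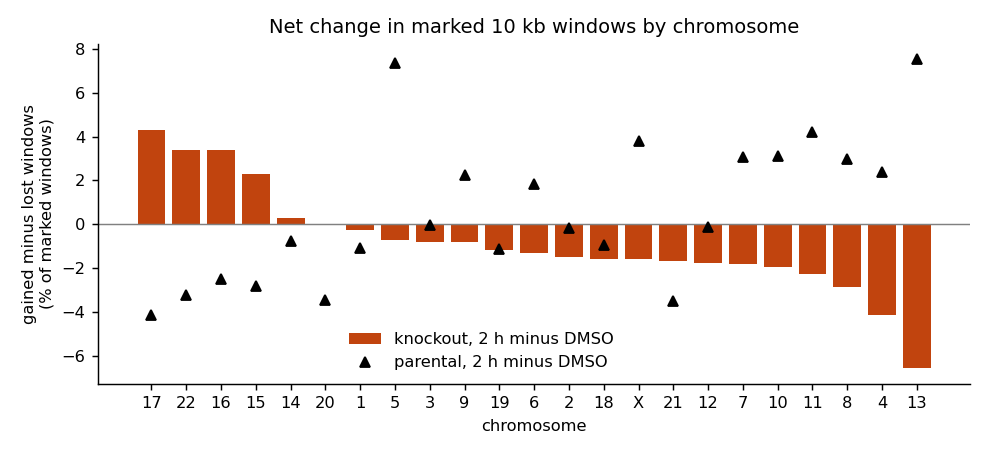
Gained minus lost 10 kb windows as a percentage of marked windows (vertical) for each chromosome (horizontal), 2 h camptothecin against DMSO, in knockout cells (bars) and parental cells (triangles). Chromosome 17 is at 4.30 in knockout cells and −4.11 in parental cells, and chromosome 13 at −6.54 and 7.51.

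Larger domains with a change were few. Of 2857 marked 1 Mb bins, 138 gained at least 5000 bp of matched cover and 30 lost as much, and the median change was −12 bp. Chromosome 14 from 77000001 to 78000000 had the largest gain, with 28 peaks over 49012 bp after camptothecin and 21 peaks over 30699 bp with DMSO. The other 4 libraries had between 20568 and 37938 bp there, so the treated knockout was the highest of all. On chromosome 16 from 12000001 to 13000000 there were 37 peaks over 48564 bp after camptothecin and 20 peaks over 34617 bp with DMSO, and at most 26639 bp elsewhere. On chromosome 8 from 130000001 to 131000000 the cover was 51853 bp after camptothecin, 36028 bp with DMSO and 36787 bp in parental DMSO. The largest loss was on chromosome 8 from 86000001 to 87000000, with 8 peaks over 10200 bp after camptothecin and 18 peaks over 29454 bp with DMSO. There parental cells had 41381 bp at 2 h, 15547 bp at 4 h and 10896 bp with DMSO, so the bin varied more between parental libraries than in this pair. On chromosome 1 from 228000001 to 229000000 the cover was 41712 bp after camptothecin and 55833 bp with DMSO. Whether the peaks in any of these bins lie in repeats was not tested.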

How the data were processed

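H3K27ac ChIP-seq of 6 libraries was used, 1 per group by the labels. Per the labels' protocols cells were fixed and sonicated, and an antibody to H3K27ac or normal rabbit IgG was used. The build hg19 and MACS2 2.1.2, BWA 0.7.17, Picard 2.9.2, SAMtools 1.8, Trimmomatic 0.39 and Trim Galore 0.6.2 are listed in the submitters' processing notes. For settings and the control of the peak calls, the sources used here give nothing. The extract protocol in the labels speaks of 4 h for all treated cells, and times were taken from the treatment labels. Peaks were called per library. The deposited fold is a ratio over local background. The deposited −log10 p and −log10 q are MACS2's, and the deposited score is 10 times −log10 q to within 1. Peaks outside chromosomes 1 to 22 and X, 3648 after camptothecin and 4305 with DMSO, were left out. Reads were not analysed here.

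The members and rules were chosen with earlier results of these data known. Lists were cut at the 30000 smallest p, with overlap of at least 1 bp. Background pileup was solved from the commonest combination of fold and p in a list, taking fold as pileup plus 1 over background plus 1. Named sites are the 10 windows of largest gain and loss of cover, the 10 regions of largest rank rise and fall, the 5 chromosomes of most extreme net, the 5 longest runs, strongest unmatched peaks and 1 Mb bins of largest change, of which examples are printed. Gene lists and marker checks needed an annotation of hg19 and were not run. The steps were tested on altered copies of the DMSO list. Python 3.11, numpy 2.4.6, pandas 2.3.3 and scipy 1.17.1 were used. Alternatives were another ranking, number, width or q limit of peaks, another overlap, window size, cover or rank gap.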

Additional observations from a re-analysis of the deposited data

Results flagged for a closer look

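Several values moved one way in the knockout at 2 h against DMSO and the other way in the parental cells at 2 h against DMSO. With 1 library a group, none of these differences was tested. Gained minus lost windows came to −287 in the knockout and 307 in the parental cells. In the knockout the sign turned at a −log10 q of at least 5, with 1613 gained and 896 lost, with 500 bp covered, with 3220 and 2843, and in 5 kb windows, with 7478 and 7476. The matched cover changed by 2.63% in the knockout and by −11.6% in the parental cells. The net of gained minus lost windows per 100 marked was −6.54 in the knockout and 7.51 in the parental cells on chromosome 13, and −4.12 and 2.37 on chromosome 4. On chromosome 17 it was 4.30 and −4.11, on chromosome 22 it was 3.39 and −3.21, and on chromosome 16 it was 3.37 and −2.50. The knockout sign turned on chromosome 13 with 15000 peaks a library, and on chromosomes 17, 22 and 16 with all deposited peaks.

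Of the 20 named windows, 4 went opposite ways. The rest either went the same way, as most of the named losses did, or had no matched cover in parental 2 h and parental DMSO, as held for most of the named gains. The losses that went the same way changed by −5 to −3365 bp in the parental cells. The gains on chromosome 16 from 29500001 and on chromosome 1 from 32420001 changed by 1030 and 1479 bp there. The cover on chromosome 12 from 113520001 changed by 5225 bp in the knockout and −3100 bp in the parental cells, and on chromosome 16 from 12630001 by 3726 and −442 bp. On chromosome 8 from 86560001 it changed by −3737 and 3162 bp, and on chromosome 11 from 56360001 by −3344 and 878 bp.

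All 5 of the 1 Mb bins with the largest gain in the knockout fell in the parental cells. The changes were 18313 bp in the knockout and −1371 bp in the parental cells on chromosome 14 from 77000001, and 15825 and −11951 bp on chromosome 8 from 130000001. They were 13947 and −6949 bp on chromosome 16 from 12000001, 13762 and −12726 bp on chromosome 10 from 73000001, and 12509 and −12276 bp on chromosome 16 from 89000001. Of the bins with the largest loss, chromosome 8 from 86000001 changed by −19254 and 30485 bp, and chromosome 4 from 49000001 by −11341 and 1202 bp. The remaining named losses also fell in the parental cells. Parental 2 h and parental DMSO had 46488 and 52456 bp on chromosome 1 from 228000001. They had 11214 and 16979 bp on chromosome 16 from 9000001, and 52912 and 62716 bp on chromosome 19 from 17000001. The matched cover of parental 2 h was 0.884 times that of parental DMSO over the whole genome, and the background pileup of parental 2 h 0.839 times. A fall was common in densely marked bins there. Only 11.3% of the bins in the densest class and 28.6% in the next class were higher in parental 2 h than in parental DMSO.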

How the results depend on the processing

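The counts follow the number of peaks taken. The shared percentage of the camptothecin peaks was 92.2 with 15000 peaks a library, 65.6 with 50000, 89.8 at a −log10 q of at least 5, 61.5 with all deposited peaks, 72.3 ranked by fold, 79.5 with peaks of at least 500 bp and 75.6 when at least 50% of the peak had to overlap. Gained and lost windows numbered 1234 and 1249 with 15000 peaks, 13450 and 14330 with 50000, 1613 and 896 at that q, and 18626 and 43533 with all peaks. They were 2867 and 3464 in 50 kb windows and 3220 and 2843 with 500 bp covered. In 5 kb windows they were 7478 and 7476. Gains therefore outnumbered losses at that q, with 500 bp covered and, by 2 windows, in 5 kb windows. Regions ranked higher and lower numbered 2158 and 2136 with 15000 peaks, 20577 and 20254 with 50000, 2099 and 2158 at that q, 123566 and 155052 with all peaks, and 4727 and 4700 at a gap of 20% of the regions. The cover ratio was 1.03 ranked by fold, 1.02 with 15000 or 50000 peaks, 1.06 at that q, 1.01 with wide peaks and 0.823 with all peaks, below 1 only there. The alternatives that follow were chosen after seeing the data. The ratio in the sparsest class of bins was 0.892, 0.840 and 0.595 with 15000, 50000 and all peaks, and in the densest 1.03, 1.07 and 0.891, the last a change of direction. With all peaks, the cover change of 3 of the 10 named gains turned to −396, −1301 and −82 bp, and the net windows of chromosomes 17, 22 and 16 to −8.53, −8.25 and −12.1 per 100 marked. Chromosome 13 turned to 1.16 with 15000 peaks. Ranked by fold, none of the 40 named regions changed direction, but 5 moved by far fewer places than by p. Chromosome 22 from 47005007 had −185 by fold (−27944 by p), chromosome 19 from 51223517 had 304 (20512 by p) and chromosome 5 from 96145681 had −1136 (−21580 by p). Of the strong regions, chromosome 1 from 68962069 had −780 (−4657 by p) and chromosome 13 from 42645710 had −175 (−4504 by p). The causes were not tested. No paired analysis was possible because each group has 1 library.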
